A study of Rattus norvegicus with 71 samples.

Results

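The 6 CRMP1+GDA animals and the 8 STIP1+NSE animals were compared directly, without controls in the contrast. These are the 14 of 71 sequenced offspring whose title carries the prefix MAR_C3 and whose autoantibody label names either pattern. The rule itself used no measured value, but the animals were chosen with earlier results of these data known. All were wild-type rats of the Sprague-Dawley strain at postnatal day 2 (PND2), born to dams that had received, before pregnancy, peptides of the pattern's own antigens mixed with Freund's adjuvant. The CRMP1+GDA animals (4 females, 2 males) came from 3 litters, here called A, B and C, and the STIP1+NSE animals (4 females, 4 males) came from 4 litters, D to G, with 2 pups from each dam and both pups of litter A female. The 12 controls of the same sequencing batch, whose dams received adjuvant and saline, are used only as a reference level. Animals of 1 litter share a dam and are not independent, and the offspring's own antibody load was not measured in these data.

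The pair is of interest because the patterns have no antigen in common. Collapsin response mediator protein 1 (CRMP1) carries semaphorin 3A signals to the growth cone's cytoskeleton, and guanine deaminase (GDA) converts guanine to xanthine and also organizes dendrites of hippocampal neurons. Stress-induced phosphoprotein 1 (STIP1) hands client proteins from HSP70 to HSP90, and neuron-specific enolase (NSE, gene Eno2) is the glycolytic enzyme of mature neurons. Maternal IgG reaches the fetus through the neonatal Fc receptor, and at this age the rat forebrain is still producing glia and beginning to form synapses.

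RNA came from 1 coronal slice per brain, 150 µm thick, with the hippocampal formation and the cortex and subcortical tissue beside it, and was sequenced as poly-A libraries. Total counts ran from 25818198 to 35600728 per animal, and 12507 of the 17494 listed genes were tested. Levels are given as CPM, the count of a gene scaled to a common library total. Markers of cortex and hippocampus were present in every library, with summed levels of 1242 to 2522 CPM in CRMP1+GDA and 1597 to 2379 CPM in STIP1+NSE. The Y-linked gene Eif2s3y was at 74.5 CPM or more in each of the 6 males and at 1.24 CPM or less in each of the 8 females, so the sexes matched their labels. In a bulk slice, fewer cells of a type and less RNA per cell cannot be told apart.

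In the median, littermates were closer to each other than animals of different litters. The median log2 distance between littermates was 0.416 over 7 pairs, against 0.507 over the 48 pairs of animals of different patterns, 0.568 over the 12 pairs from different CRMP1+GDA litters and 0.499 over the 24 pairs from different STIP1+NSE litters. The first principal component held 25.9% of the variance. Litters A, C and D lay at its low end and litters B and E at its high end, so both patterns had animals at each end. Litter B also held the lowest choroid plexus sums of the 14 animals, 396 and 355 CPM, against 1732 and 2720 CPM in litter C.

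**Figure D1:**
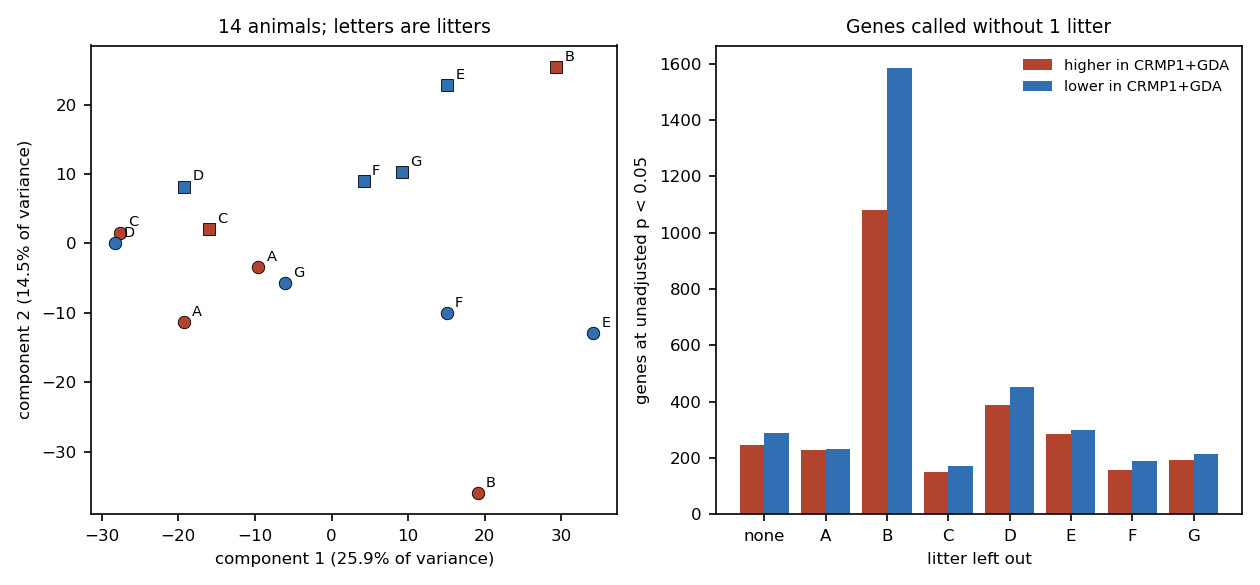
Left, the first 2 principal components of log2 CPM, with 1 point per animal (red, CRMP1+GDA; blue, STIP1+NSE; squares, males; circles, females) and litters as letters. Right, the number of genes at unadjusted p under 0.05 with no litter left out and with each litter left out; the count rose to 1080 higher and 1586 lower genes without litter B.

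With a term for sex, 1 gene passed a false discovery rate (FDR) of 0.1 by edgeR's quasi-likelihood test, which is 0.008% of the genes tested. That gene, Vwa3a, was lower in CRMP1+GDA. At an unadjusted p under 0.05, 246 genes were higher in CRMP1+GDA (1.97% of those tested) and 287 were lower (2.29%), 533 in all or 4.26%. The median standard error (SE) of a log2 fold change was 0.11 and the median half-width of its 95% interval was 0.23. Differences smaller than this were mostly not detectable with these 14 animals, even without adjustment. The interval treats littermates as independent, though their estimated correlation was 0.37. Larger differences also failed the FDR, such as log2 fold changes of -0.67 for Gda and -0.46 for Rasal1. The levels of the patterns did not overlap for 15 genes, 0.12% of those tested, of which 8 were higher and 7 lower in CRMP1+GDA.

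Vwa3a encodes a protein with von Willebrand factor type A domains and lies on the plus strand of chromosome 1, from 175293873 to 175355373 in the rn7 assembly, with 4142 bases of exon. Its levels in CRMP1+GDA were 7.45 and 8.89 CPM in litter A, 7.65 and 8.49 CPM in litter B and 5.96 and 7.39 CPM in litter C. In STIP1+NSE they were 13.8 and 12.2 CPM in litter D, 11.8 and 12.6 CPM in litter E, 12.5 and 15.5 CPM in litter F and 14.3 and 12.6 CPM in litter G. Every CRMP1+GDA animal lay below every STIP1+NSE animal, and the 7 litter means fell into the same order, 6.67 to 8.17 CPM against 12.2 to 13.98 CPM. The group means were 7.64 ± 1.02 CPM (SD, n = 6) and 13.2 ± 1.24 CPM (SD, n = 8). The log2 fold change was -0.81 (SE 0.11, 95% interval -1.04 to -0.58) with an adjusted p of 0.0226 by edgeR's quasi-likelihood test.

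The controls of the batch spanned 8.99 to 18.7 CPM for Vwa3a, so the STIP1+NSE animals sat within the control range and the CRMP1+GDA animals just below it. Against those 12 controls the log2 difference was -0.79 (SE 0.22) for CRMP1+GDA and -0.01 (SE 0.19) for STIP1+NSE, from comparisons that share their controls. Animals of the LDHA/B+CRMP1+STIP1 pattern in the same batch ran from 5.97 to 28.5 CPM and controls of the other batch from 6.93 to 26.5 CPM, so levels as low as those of CRMP1+GDA also occurred elsewhere in the series. The call was lost when the litter was treated as the unit. With counts summed per litter the log2 fold change was -0.79, with an edgeR unadjusted p of 0.000162 and an adjusted p of 1.00. With litter as a random effect in limma it was -0.81, with an unadjusted p of 2.48e-05 and an adjusted p of 0.311. Vwa3a was picked for its small p in the same animals, so these unadjusted values are a description. Leaving out CRMP1+GDA replicate 1, 5 or 6 gave edgeR adjusted p-values of 0.103, 0.101 and 0.101, and leaving out litter A, C, F or G gave 0.153, 0.448, 0.251 and 0.140.

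**Figure D2:**
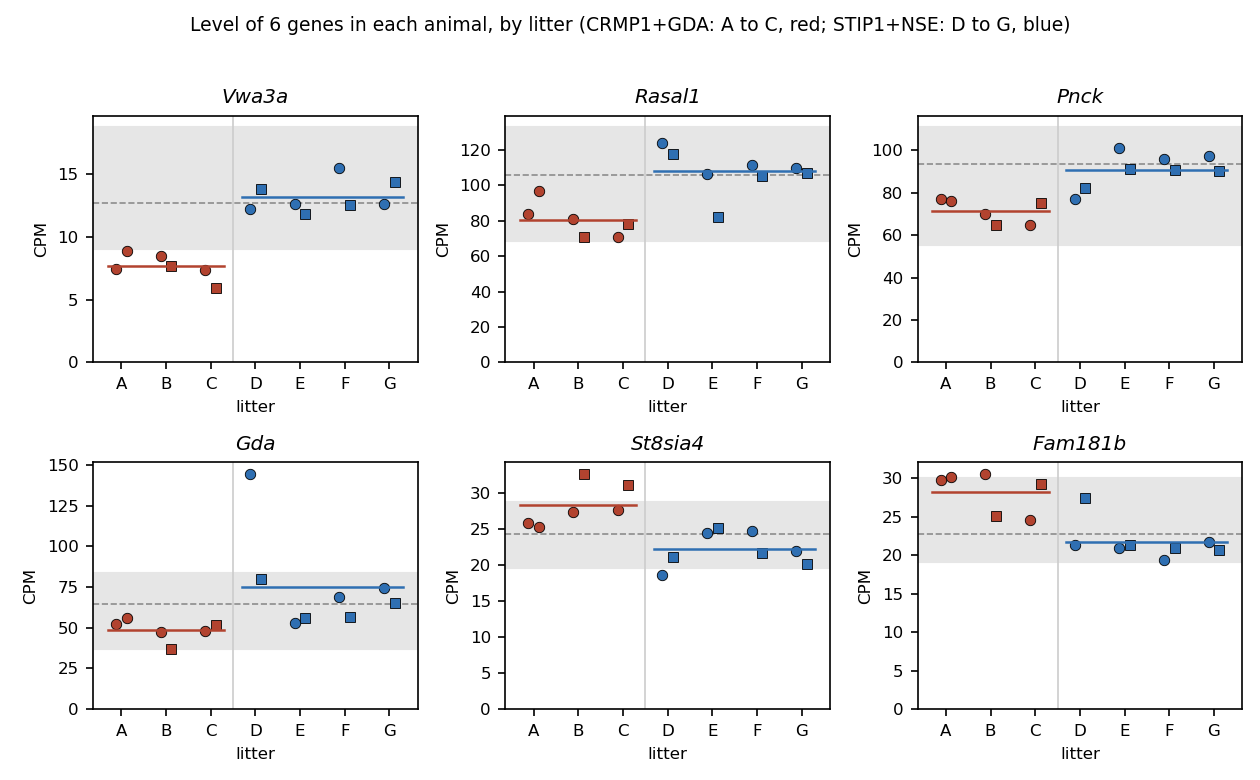
CPM of 6 genes in each animal by litter (circles, females; squares, males), with the mean of each pattern as a line, and the range (grey) and median (dashed) of the 12 controls of the batch. For Vwa3a the CRMP1+GDA animals span 5.96 to 8.89 CPM and the STIP1+NSE animals 11.8 to 15.5 CPM.

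Gda, the gene of 1 of the 2 antigens in the CRMP1+GDA pattern, had the smallest p of the 7 antigen genes. It lies on the minus strand of chromosome 1 (218906852 to 218982360). Its levels were 52.3 and 56.0 CPM in litter A, 36.8 and 47.2 CPM in litter B and 51.5 and 47.8 CPM in litter C. In STIP1+NSE they were 80.3 and 145 CPM in litter D, 56.3 and 53.0 CPM in litter E, 56.8 and 68.9 CPM in litter F and 64.9 and 74.6 CPM in litter G. The ranges touched only through the highest CRMP1+GDA animal, at 56.0 CPM, and the lowest STIP1+NSE animal, at 53.0 CPM.

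The log2 fold change of Gda was -0.67 (SE 0.19, 95% interval -1.07 to -0.28). Its unadjusted p was 0.00253, and it failed the correction (edgeR adjusted p = 0.974). STIP1+NSE replicate 2, the animal at 145 CPM, also had the lowest summed thalamus and habenula markers, at 246 CPM against 629 to 1258 CPM in the other STIP1+NSE animals. Without that animal the log2 fold change was -0.44 (unadjusted p = 0.00158), and with a thalamus score in the fit it was -0.46 (unadjusted p = 0.00118). The direction was the same, and the unadjusted p stayed under 0.05, in all 41 alternative fits, of which none brought Gda under the FDR threshold. Controls of the batch ran from 36.9 to 83.8 CPM. Against them the log2 difference was -0.42 (SE 0.20) for CRMP1+GDA and 0.22 (SE 0.18) for STIP1+NSE.

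The other 3 antigen genes of these patterns were nearly level. Crmp1 ran from 2041 to 2513 CPM (median 2398) in CRMP1+GDA and from 2149 to 2852 CPM (median 2399) in STIP1+NSE, a log2 fold change of -0.07 (95% interval -0.22 to 0.08). Stip1 ran from 196 to 228 CPM (median 208) and from 190 to 207 CPM (median 199.6), a log2 fold change of 0.08 (95% interval -0.02 to 0.18). Eno2 ran from 255 to 383 CPM (median 337) and from 268 to 358 CPM (median 337), a log2 fold change of -0.01 (95% interval -0.20 to 0.18). None of the 3 had an unadjusted p under 0.05. That does not show equal levels, and the intervals give the differences that these animals still allow.

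The antigen genes of the other patterns, which neither group of dams received, had log2 fold changes of 0.003 for Dpysl2 (CRMP2), -0.005 for Ldha and 0.019 for Ldhb, with 95% intervals no wider than -0.25 to 0.24. Per length, in RPKM (CPM per kilobase of exon), Crmp1 and Dpysl2 were the most abundant of the 7 antigen genes, at 706 and 621 in CRMP1+GDA. Gda was the least abundant, at 33.3 in CRMP1+GDA and 51.3 in STIP1+NSE.

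**Figure D3:**
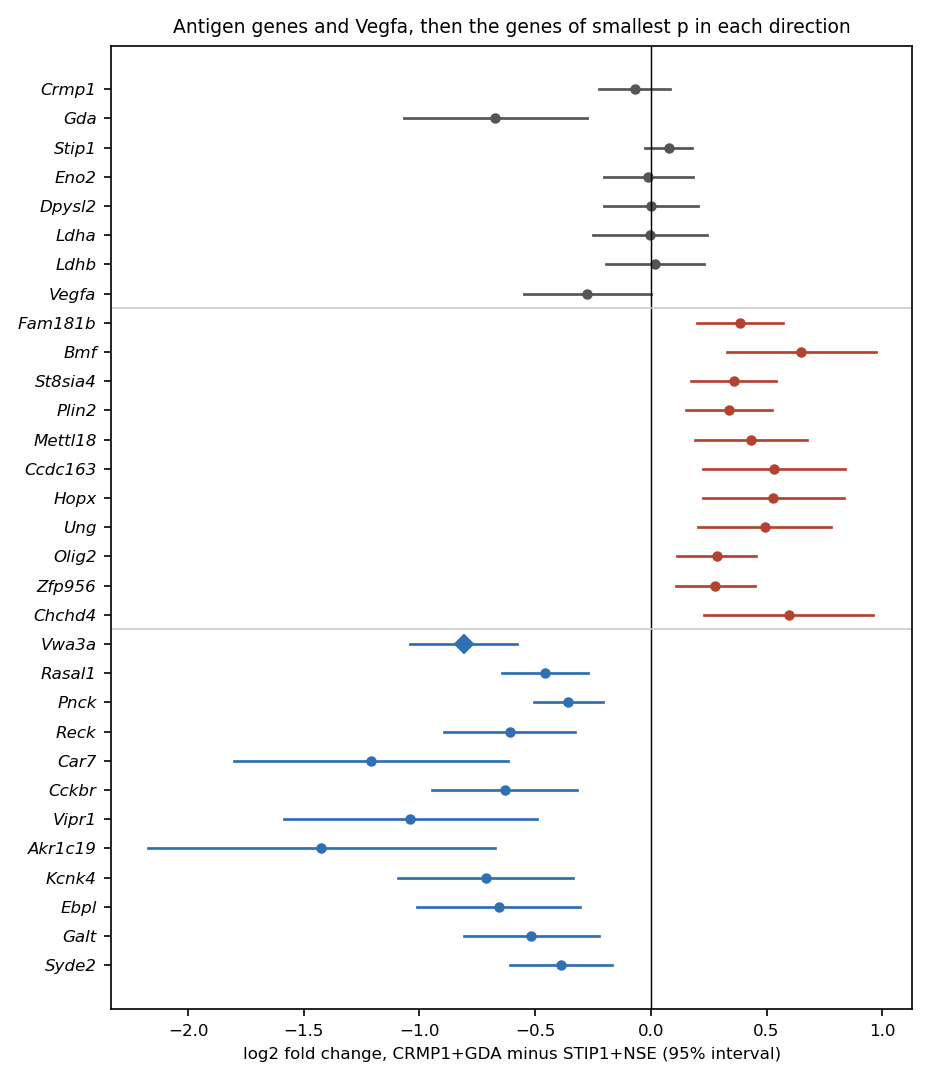
Log2 fold change of CRMP1+GDA over STIP1+NSE with its 95% interval for the 7 antigen genes and Vegfa (grey), and for genes among the 12 with the smallest p in each direction (red, higher; blue, lower); the diamond marks Vwa3a, the gene past the FDR threshold. Hoxb7 is off the scale and is not drawn.

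The 11 genes that followed Vwa3a in order of p among the lower genes were Rasal1, Pnck, Reck, Car7, Cckbr, Vipr1, Akr1c19, Kcnk4, Ebpl, Galt and Syde2. None passed the FDR threshold, the smallest adjusted p being 0.516 for Rasal1 and Pnck. Rasal1, a calcium-responsive inhibitor of Ras, had 70.5 to 97.0 CPM (median 79.6) in CRMP1+GDA and 82.3 to 124 CPM (median 108) in STIP1+NSE, a log2 fold change of -0.46 (SE 0.09). Pnck, a calcium/calmodulin-dependent kinase of neurons, had 64.8 to 77.0 CPM (median 72.7) and 77.0 to 101 CPM (median 90.9), a log2 fold change of -0.36 (SE 0.07). In both genes a single STIP1+NSE animal reached into the CRMP1+GDA range: replicate 3 for Rasal1 and replicate 2 for Pnck.

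Reck, a membrane-anchored inhibitor of matrix metalloproteinases and a co-receptor for Wnt7 signals, had a log2 fold change of -0.61 (SE 0.13) between medians of 25.5 and 39.0 CPM. Car7, a neuronal carbonic anhydrase, had -1.21 (SE 0.28), from medians of 0.692 and 1.74 CPM. The receptors for cholecystokinin (Cckbr) and for vasoactive intestinal peptide (Vipr1) had -0.63 (SE 0.15) and -1.04 (SE 0.26). The levels of Car7, Vipr1 and Akr1c19 were near 1 CPM, close to the filter.

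Among the higher genes, the 12 with the smallest p were Hoxb7, Fam181b, Bmf, St8sia4, Plin2, Mettl18, Ccdc163, Hopx, Ung, Olig2, Zfp956 and Chchd4, with edgeR adjusted p-values of 0.864 to 0.974. St8sia4, a polysialyltransferase that modifies the neural cell adhesion molecule, had 25.3 to 32.6 CPM (median 27.4) in CRMP1+GDA and 18.5 to 25.1 CPM (median 21.8) in STIP1+NSE, a log2 fold change of 0.36 (SE 0.09), and its groups did not overlap. Bmf, a pro-apoptotic member of the BCL2 family, had medians of 4.25 and 2.74 CPM and a log2 fold change of 0.65 (SE 0.15). Hopx, a homeodomain protein of hippocampal and outer radial glial progenitors, had medians of 12.2 and 8.50 CPM and a log2 fold change of 0.53 (SE 0.14). Olig2, a transcription factor of oligodendrocyte precursors, had 59.8 to 67.1 CPM and 42.8 to 60.4 CPM and differed by 0.28 in log2 (SE 0.08). For Plin2, which coats lipid droplets, the log2 fold change was 0.34 (SE 0.09), and for Ung, a DNA repair glycosylase, it was 0.49 (SE 0.13).

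These genes were chosen for their difference between the patterns, which largely fixes that the controls lie between them, so their values beside the 12 controls are a description. For the 11 higher genes other than Hoxb7, the log2 difference from controls was 0.10 (Olig2) to 0.44 (Bmf) in CRMP1+GDA and -0.35 (Chchd4) to -0.02 (Mettl18) in STIP1+NSE. For the 11 lower genes other than Vwa3a it was -0.67 (Vipr1) to -0.16 (Cckbr) in CRMP1+GDA and 0.02 (Pnck) to 1.10 (Akr1c19) in STIP1+NSE. Which of the patterns lay farther from the controls thus varied: Rasal1 had -0.41 and 0.02, while Akr1c19 had -0.33 and 1.10. The control samples are shared by both comparisons, so these values are not independent of each other.

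The 15 genes without overlap between the patterns were picked out by their values. Besides Vwa3a, St8sia4, Syde2, Ccdc163 and Zfp956 they included Ing3, Prkab2, Chn1 and Hmgcs1, lower in CRMP1+GDA, and Pard3, Mmp24, Mllt1, Wnt8b and Mboat2, higher in CRMP1+GDA. Hmgcs1, an enzyme of cholesterol synthesis, averaged 1148 CPM in CRMP1+GDA and 1254 CPM in STIP1+NSE, with a log2 fold change of -0.12 (SE 0.04). Wnt8b, a Wnt ligand of the medial cortex, averaged 1.53 and 0.80 CPM, a log2 fold change of 0.93 (SE 0.39). Apart from Wnt8b, the 8 genes added here differed by 0.22 or less in log2.

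The gene lists are described by counts at an unadjusted p under 0.05, to be read beside 1.97% higher and 2.29% lower over all genes. They are also described by their median log2 fold change, which was 0.01 over all genes. List counts from another fit are to be read beside those over all genes in that fit. With litter as a random effect, 113 of the 12507 genes were higher and 129 lower. With counts summed per litter, 128 were higher and 141 lower. Without litter A, B, C, D, E, F or G, in that order, 229, 1080, 150, 386, 283, 157 and 192 genes were higher. In the same order, 233, 1586, 172, 452, 298, 190 and 212 were lower. Around CRMP1, 0 of 15 tested genes of the CRMP family and semaphorin 3A signalling were called in either direction (median -0.03). The ligand Sema3a had the smallest p of that list, with medians of 20.7 and 22.7 CPM and a log2 fold change of -0.27 (SE 0.18). The receptors Plxna3 and Nrp1 had -0.20 (SE 0.18) and 0.22 (SE 0.21).

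Around GDA, 2 of 20 tested genes of purine salvage and synthesis were lower and 0 higher (median 0.00). These were Gda itself and Gmpr2, which reduces GMP to IMP, with a log2 fold change of -0.20 (SE 0.09). Around STIP1, 3 of 22 tested HSP90 and HSP70 chaperones were higher and 0 lower (median 0.07). They were Hspa5, the chaperone of the endoplasmic reticulum (0.16, SE 0.06), and the HSP90 co-chaperones Fkbp4 (0.13, SE 0.05) and Fkbp5 (0.14, SE 0.06), all log2 fold changes. All 3 kept an unadjusted p under 0.05 with litter as a random effect, and 0 of the 22 did with counts summed per litter. Hspa5 ran from 361 to 407 CPM in CRMP1+GDA and from 293 to 368 CPM in STIP1+NSE, so the ranges overlapped at their edges. Around NSE, 1 of 20 glycolysis genes was higher, Aldoc, the aldolase of astrocytes (0.20, SE 0.09), and 0 were lower (median 0.00).

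Genes for cytokines and growth factors that the study assayed as proteins were mostly too low to test. Of 28 listed, 4 passed the filter and none had an unadjusted p under 0.05. Their log2 fold changes were -0.27 for Vegfa (SE 0.13, unadjusted p = 0.0510), -0.40 for Egf (SE 0.20), -0.24 for Cx3cl1 (SE 0.14) and -0.07 for Il18. Il13, Il17a and Ifng had no count in any of the 14 animals. Vegfa, the endothelial growth factor, ran from 79.0 to 135 CPM (median 85.8) in CRMP1+GDA and from 93.1 to 147 CPM (median 105) in STIP1+NSE. The highest CRMP1+GDA value was replicate 3 of litter B, while the 5 others did not exceed 89.97 CPM. In whole-brain lysates of other animals, the paper reported higher VEGF protein in CRMP1+GDA than in STIP1+NSE offspring. The RNA difference here had the opposite direction, and the reason was not tested. Of the 10 VEGF ligands and receptors, none was called.

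Of the genes that handle IgG, 0 of 6 tested were called (median 0.21), among them the neonatal receptor Fcgrt and its partner B2m. Of 16 microglial and complement genes, 2 were higher, C1qc and C1qa, which form the C1q initiator of the complement cascade together with C1qb, and 0 were lower (median 0.23). Their log2 fold changes were 0.55 (SE 0.25), 0.46 (SE 0.21) and, for C1qb, 0.59 (SE 0.32, not called). The summed level of the list was 82.6 to 130 CPM in CRMP1+GDA and 70.5 to 145 CPM in STIP1+NSE. Litter D held the 2 highest STIP1+NSE sums. Without it, 10 of the 16 genes were higher in CRMP1+GDA. The number was 3 without litter B and 0 without litter A, C, E, F or G. These fits differed in how many genes they called. Over all genes tested, 386 were higher without litter D, 1080 without litter B and 150 to 283 without another litter. With no litter left out, 246 were. Of 16 interferon response genes, 1 was lower (Stat2, -0.19, SE 0.09) and 0 were higher.

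The synaptic lists had negative medians and the cell cycle list a positive one. Over all genes tested, 6483 of 12507 had a positive sign. Among 25 genes of synaptic vesicles and release, 24 had a negative sign. Signs were also one-sided in other lists, such as positive in 71 of 72 ribosomal protein genes and 12 of 12 meninges genes. Members measured in the same slices are not independent of each other. Of the 25 synaptic vesicle and release genes, 4 were lower and 0 higher (median -0.12). The 4 were the fusion protein Snap25 (-0.17, SE 0.06), the calcium sensor Syt1 (-0.20, SE 0.09), Syn1, which clusters vesicles (-0.17, SE 0.07), and Rph3a, a Rab3 effector (-0.18, SE 0.08). With litter as a random effect 1 of the 25 was lower (Snap25 p = 0.0268, Syn1 p = 0.0550, Rph3a p = 0.0850, all unadjusted), and with counts summed per litter 0 were. Over all genes, these 2 fits called 129 and 141 lower, against 287 with animals as the unit. The list's count also varied with the litter left out, with 0 of the 25 lower without litter C, 1 without D or F, 3 without G, 4 without A, 10 without E and 11 without B. Snap25 ran from 277 to 333 CPM (median 304) in CRMP1+GDA and from 309 to 361 CPM (median 347) in STIP1+NSE. In the postsynaptic list, 1 of 22 genes was lower, Camk2a, the kinase of excitatory synapses (-0.45, SE 0.14), and among 18 glutamate receptor genes 1 was lower, the AMPA receptor subunit Gria3 (-0.29, SE 0.09), with 0 higher in both lists. Their medians were both -0.08. Camk2a ran from 85.8 to 133 CPM and from 105 to 218 CPM, and its 2 highest animals were those of litter D, without which its log2 fold change was -0.26.

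Of 25 cell cycle genes, 5 were higher and 0 lower (median 0.12). They were the cyclin Ccnd2 (0.27, SE 0.10) and 4 subunits of the replicative helicase, Mcm2 (0.18, SE 0.08), Mcm3 (0.25, SE 0.11), Mcm5 (0.25, SE 0.11) and Mcm6 (0.12, SE 0.06). With litter as a random effect 1 of the 25 was higher (Ccnd2 p = 0.0356, Mcm2 p = 0.0675, Mcm5 p = 0.0656, all unadjusted), and with counts summed per litter 0 were. Over all genes, these 2 fits called 113 and 128 higher, against 246 with animals as the unit. Ccnd2 ran from 32.1 to 47.6 CPM in CRMP1+GDA and from 29.9 to 41.5 CPM in STIP1+NSE. The mitotic genes of the list, such as Mki67, Top2a and Cdk1, were not among those called. The 2 animals of litter C had the highest sums of the list, 725 and 688 CPM. Without litter C, 1 of the 25 genes was higher, as it was without litter D or without litter F. The number was 4 without litter E, 7 without A or G and 8 without B.

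Of 14 genes of the oligodendrocyte lineage, 3 were higher, Olig2, Olig1 (0.23, SE 0.08) and Mobp, a myelin gene, and 0 were lower (median 0.10). Mobp was carried by CRMP1+GDA replicates 4 and 5, at 5.63 and 1.32 CPM, while the other 12 animals were at 0.393 CPM or less. Mobp thus passed the filter only through CRMP1+GDA animals. Its direction was largely fixed in advance, so its call does not add to those of Olig2 and Olig1. Replicate 4 also had the highest Mbp, at 122 CPM, against a median over the CRMP1+GDA animals of 59.0 CPM. Cytosolic ribosomal proteins had 3 higher and 0 lower of 72 (among them Rpl13 and Rps18; median 0.11), and oxidative phosphorylation had 1 higher and 0 lower of 86 (Cox4i2; median 0.07). Multiple near-identical copies of ribosomal protein genes can share reads, so single members are uncertain.

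**Figure D4:**
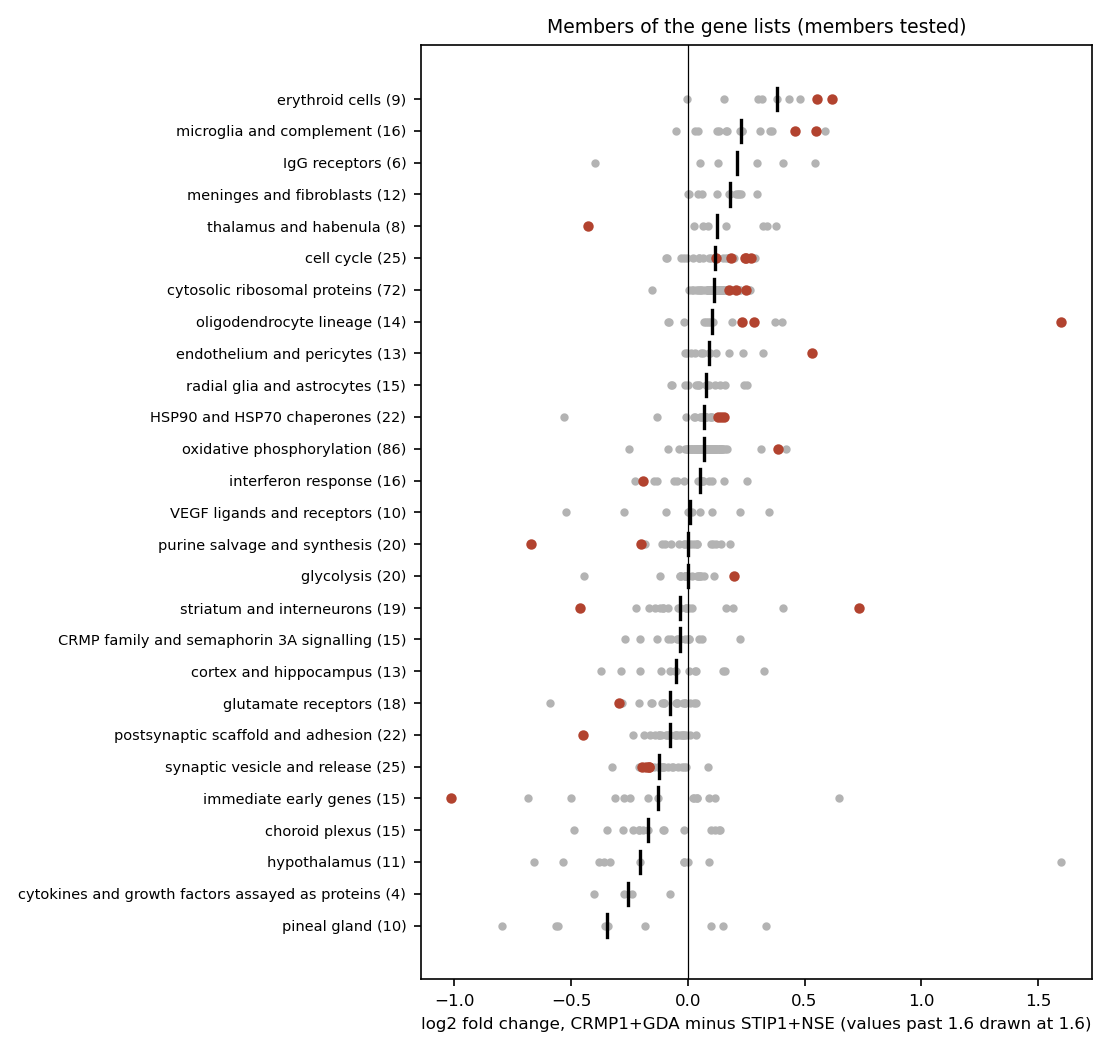
Log2 fold change of each tested member of 27 gene lists, with members at an unadjusted p under 0.05 in red, the others in grey, and the list median as a bar; values past 1.6 are drawn at the edge. The medians of the synaptic lists lie left of 0 (-0.12, -0.08 and -0.08), and those of cell cycle and ribosomal proteins right of it (0.12 and 0.11).

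How many genes were called depended on litter B. The medians of the synaptic, cell cycle, ribosomal protein and oxidative phosphorylation lists kept their sign in all 41 alternative fits, most of which reuse the same animals. Medians of other lists did so too, among them chaperones, IgG receptors, microglia and complement, oligodendrocyte lineage and erythroid genes. The size of the synaptic, cell cycle, ribosomal protein and oxidative phosphorylation medians varied with the litter left out. Without litter C they shrank to -0.079 (synaptic vesicle), -0.009 (postsynaptic), -0.012 (glutamate receptors), 0.059 (cell cycle), 0.070 (ribosomal proteins) and 0.003 (oxidative phosphorylation). The median over all genes was 0.003 in that fit. Other litters also shrank some of them. Synaptic vesicle was -0.072 without litter D, and glutamate receptors -0.022 and ribosomal proteins 0.074 without litter A. Oxidative phosphorylation was 0.018 without litter A and 0.016 without litter E. Without litter B all of these medians were larger in size. Without litter B, 62 genes were higher (0.496% of those tested) and 209 lower (1.67%) at an FDR of 0.1, and at an unadjusted p under 0.05 there were 1080 higher (8.64%) and 1586 lower (12.7%), from 4 CRMP1+GDA and 8 STIP1+NSE animals. Of the 533 genes at an unadjusted p under 0.05 in all 14 animals, 397 were also called without litter B, each in the same direction. They made up 74.5% of the first list and 14.9% of the second. Leaving out any other litter gave 322 to 838 genes at that threshold and 0 to 3 genes past the FDR.

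Without litter B, 57 of the 72 ribosomal protein genes and 28 of the 86 oxidative phosphorylation genes were higher at an unadjusted p under 0.05, and 0 of either were lower. In the same fit, 11 of 25 synaptic vesicle genes, 10 of 22 postsynaptic genes and 10 of 18 glutamate receptor genes were lower and 0 higher. Shank2, Shank1 and Nrxn3, which build and align the synapse, and the glutamate receptors Gria3, Gria2 and Grm5 passed the FDR there. Shank2, with the litter means of 213 and 191 CPM in A and C against 248 to 274 CPM in D to G, had 286 CPM in litter B. Gria3 averaged 76.5 and 82.1 CPM in A and C, 101 to 111 CPM in D to G and 102 CPM in B.

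These genes are named for passing the FDR once litter B was left out, so that litter B lay near the STIP1+NSE litters in them follows from that choice. For Vwa3a, Rasal1 and Pnck, chosen for their difference over all 14 animals, its means were 8.07, 75.8 and 67.6 CPM. Whether litter B or litters A and C are typical of the pattern cannot be told apart with 3 litters. The 2 animals of litter B, replicates 3 and 4, also differed from each other. On the first principal component they lay at 29.3 and 19.1, but on the second at 25.5 and -35.9. Their cortex and hippocampus sums were 2522 and 1242 CPM, and their Hox sums 0.0743 and 224 CPM. A mean of litter B thus covers 2 unlike slices. Vegfa, at 81.3 and 84.5 CPM in A and C and 112 CPM in B, had a log2 fold change of -0.46 (SE 0.12) without litter B, with an edgeR adjusted p of 0.0996. That direction is opposite to the VEGF protein difference in the paper. Pfkp, a glycolytic enzyme, was at 116 and 110 CPM in A and C, 255 CPM in B and 162 to 264 CPM in D to G.

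**Figure D5:**
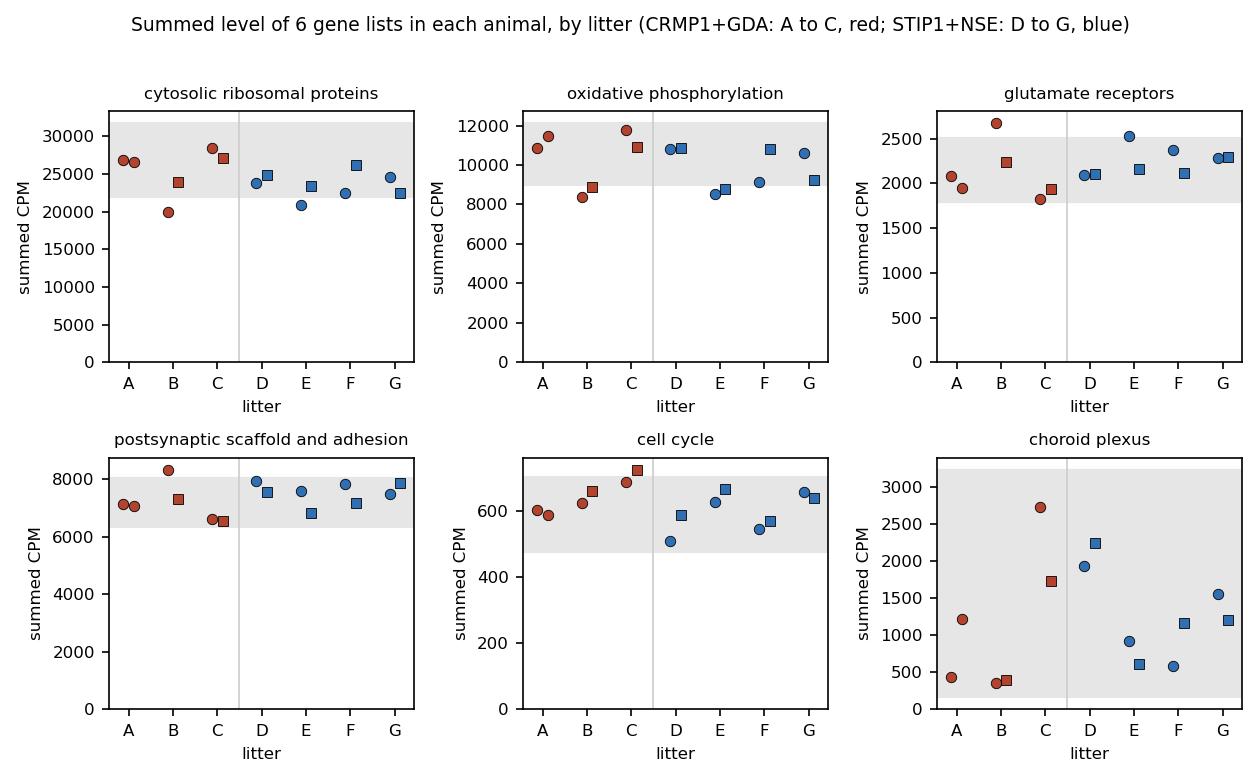
Summed CPM of 6 gene lists in each animal by litter (red, CRMP1+GDA; blue, STIP1+NSE; circles, females; squares, males), with the range of the 12 controls of the batch in grey. Litter B lies below litters A and C for ribosomal proteins and oxidative phosphorylation and above them for glutamate receptors.

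The slice's makeup varied among animals of both patterns. Choroid plexus markers summed to 355 to 2720 CPM in CRMP1+GDA and 587 to 2247 CPM in STIP1+NSE, with 0 of 15 called. Thalamus and habenula markers summed to 748 to 1300 CPM and 246 to 1258 CPM, with 1 of 8 called (Prkcd, lower, with a log2 fold change of -0.43, SE 0.19). For meninges the sums were 884 to 2205 CPM and 233 to 2181 CPM, with 0 of 12 called, for hypothalamus 10.7 to 190 CPM and 21.6 to 106 CPM, with 0 of 11 called and Pmch at 0 in all 14 animals, and for the pineal gland 5.03 to 58.2 CPM and 3.99 to 116 CPM, with 0 of 10 called. Striatal and interneuron markers had 1 higher (Ebf1) and 1 lower (Drd1) of 19, cortex and hippocampus had 0 of 13, radial glia and astrocytes 0 of 15, endothelium and pericytes 1 higher of 13 (Kcnj8), and immediate early genes 1 lower of 15 (Egr2). Erythroid genes had 2 higher of 9, Alas2 and Hbb, the latter 1 of several similar globin genes, with sums of 1019 to 1942 CPM and 600 to 2261 CPM, and 0 of 9 with litter as a random effect (Alas2 p = 0.0566, Hbb p = 0.0772, unadjusted). Their part in the other results was not tested, apart from fits with a choroid plexus or thalamus score, in which Vwa3a had log2 fold changes of -0.83 and -0.83 and edgeR adjusted p-values of 0.0208 and 0.0361.

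Hox genes, which are normally silent in the forebrain, set 3 animals apart. CRMP1+GDA replicates 4 and 5 had summed levels of 224 and 34.7 CPM and STIP1+NSE replicate 3 had 24.5 CPM, whereas the other 11 animals had at most 6.79 CPM. Of the 13 tested Hox genes, 6 had an unadjusted p under 0.05, all higher in CRMP1+GDA. They were led by Hoxb7, which was detected in 4 of 6 CRMP1+GDA animals at 0.147 to 1.68 CPM and in 1 of 8 STIP1+NSE animals at 0.0693 CPM. Apart from replicate 3, no STIP1+NSE animal had a summed Hox level over 0.852 CPM. Every tested Hox gene thus passed the filter through at least 1 CRMP1+GDA animal, so the direction was largely fixed in advance. With litter as a random effect 0 of the 13 had an unadjusted p under 0.05 (Hoxb7 p = 0.0967, Hoxb8 p = 0.219, Hoxc5 p = 0.243). The same 2 CRMP1+GDA animals carried Mobp, so these calls rest on few animals. Leaving out the 3 animals, a choice made after their values were seen, gave 897 genes at an unadjusted p under 0.05 and 1 gene past the FDR, Slc6a7, in place of Vwa3a (edgeR adjusted p = 0.114, log2 fold change unchanged in sign).

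Sex did not detectably alter the contrast. The interaction of pattern with sex gave 0 genes past an FDR of 0.1 by edgeR (0%) and 0 by DESeq2. At an unadjusted p under 0.05 it gave 42 genes with a positive and 87 with a negative term, 129 in all or 1.03% of those tested, and 53 and 102 by DESeq2. With 2 males in CRMP1+GDA, from litters B and C, only large differences between the sexes could be detected. In the 8 females alone, Vwa3a had a log2 fold change of -0.72 with an edgeR unadjusted p of 0.000406 and an adjusted p of 0.955.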

How the data were processed

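The deposited table held whole-number counts per gene, made by the authors with STAR 2.5.4b and featureCounts on the rat genome (rn7). It also gave exon length, a unit of its own in the deposited file. The counting options are not given in the sources used here. Of the counts between 1 and 9, 74.8% were even, so halved counts were tried as an alternative. CPM were computed from total counts. Genes with more than 1 CPM in at least 2 of the 14 animals were tested with the robust quasi-likelihood fit of edgeR 4.0.16 (R 4.3.3) after TMM scaling, with terms for sex and pattern and a Benjamini-Hochberg FDR under 0.1. Alternatives used limma 3.58.1, DESeq2 1.42.0 and sva 3.50.0, other scalings and filters, litter as the unit, and each animal or litter left out. Each pattern was set against the 12 controls in a fit over the 43 animals of the batch. Scripts were tested on simulated counts. No pair of libraries agreed within sampling noise, the smallest chi-square per gene being 11.0. P-values treat littermates as separate samples. Genes named were the antigen genes and Vegfa, the 12 with the smallest p in each direction, and the 3 with the smallest p per list. Some genes are not reported here. The animals, the 31 gene lists and the tests were chosen with earlier results of these data known.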

Additional observations from a re-analysis of the deposited data

Results flagged for a closer look

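Within a pattern, 15 of 124 groups of values had an animal far from the others by Dixon's test, which picks out about 1 group in 20 by chance. In STIP1+NSE, the highest value stood apart for Gda (145 CPM, the next at 80.3), Fam181b (27.5 CPM, next 21.7), Hopx (11.8 CPM, next 8.94), Syde2 (9.99 CPM, next 8.09) and Hoxb7 (0.0693 CPM, the others at 0). The lowest value stood apart for Rasal1 (82.3 CPM, next 105) and Galt (7.86 CPM, next 12.4). In CRMP1+GDA, Vegfa had 1 animal at 135 CPM with the next at 89.97. Among summed lists, single animals stood apart in CRMP1+GDA for CRMP family and semaphorin 3A signalling (11678.5 CPM, next 10250.5), the pineal gland (58.2 CPM, next 8.42) and Hox genes (224 CPM, next 34.7). In STIP1+NSE they did so for the assayed cytokines and growth factors (343 CPM, next 284), synaptic vesicle and release (the lowest at 6028 CPM, next 6889.5), erythroid cells (2261 CPM, next 1251) and Hox genes (24.5 CPM, next 0.852). No gene's difference between the patterns depended on sex at an FDR of 0.1.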

How the results depend on the processing

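The count of genes past the FDR, 1 by the quasi-likelihood fit, was 8 with DESeq2 (Bmf, Car7, Cckbr, Fam181b, Pnck, Rasal1, Reck and Vwa3a), 6 with edgeR's likelihood ratio test, 3 with the first surrogate variable, 2 with a thalamus score and 2 over all 71 animals (Hoxb7 and Pomc). It was 0 with counts summed per litter, with litter as a random effect, in females alone, in litters with both sexes and over the 43 animals of the batch. It ran from 0 to 271 when 1 animal or litter was left out. Pomc, called over all 71 animals, rested on litter A. It averaged 39.8 CPM there and 1.72 to 3.78 CPM in litters B to G. With litter as a random effect in limma its unadjusted p was 0.432. The count at an unadjusted p under 0.05, 533, was 958 with the surrogate variable, 1106 with a choroid plexus score, 269 with litter sums, 242 with litter as a random effect and 897 without the 3 animals with Hox genes, and ran from 322 to 2666 with 1 animal or litter left out. CRMP1+GDA replicates 3 and 4 of litter B gave 1146 and 1139 when left out singly. The cause of these shifts was not tested. Other scalings and filters gave 1 gene each, Vwa3a. No named gene with an unadjusted p under 0.05 changed sign in any alternative. That follows largely from choosing genes for a small p and refitting mostly the same animals. No paired analysis was possible because the labels give no replicate number that ties animals across the patterns and each litter belongs to 1 pattern. The 3 and 4 litters limit the precision, and the ranges of total counts overlapped between the patterns.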
